A study of Mus musculus with 9 samples.

Results

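The DNA replication and G1/S genes described here are 37 genes of chromosome duplication and of entry into S phase, chosen by name. Measured levels were not the rule of choice, but earlier results of these data were known when the genes were chosen. They were found by gene symbol among the 15109 genes of the deposited tables, all 37 were present, and each had a count in all 9 libraries. They were ordered by role: 8 genes of helicase loading, 6 of helicase activation, 5 of polymerases and primase, 6 of the sliding clamp and its loader, 2 of Okazaki fragment maturation, 3 of nucleotide supply, 3 of chromatin and DNA methylation at the fork, and 4 of G1/S control. Transcripts were measured by poly(A) RNA sequencing in mast cells, the tissue effector cells of allergy, grown from bone marrow of wild-type C57BL/6 mice for at least 4 weeks in DMEM to which serum (FBS) was added at 20% and, at 30%, conditioned medium of WEHI-3 cells, which secrete interleukin 3. Control was 3 libraries of untreated cells. BSA was 3 libraries of cells sensitised with IgE against dinitrophenyl (DNP) and stimulated with DNP coupled to serum albumin, which crosslinks the high-affinity IgE receptor. Taxinine was 3 libraries of cells handled like BSA with 1 h of taxinine, a taxane-type diterpenoid of yew, before the antigen. The labels name no taxinine dose, no antigen time, no vehicle, no taxinine without antigen and no sensitised cells without antigen, so in BSA against Control the effects of IgE and of antigen cannot be told apart. The 3 samples per group are called biological replicates but are not tied to separate animals or cultures, so the p-values reflect only how these samples scatter, and that scatter may be technical.

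As background, origins of replication are licensed in G1, when Cdc6 and Cdt1 place the ring-shaped MCM2-7 helicase on DNA. Cyclin E with its kinase and the E2F transcription factors drive entry into S phase, where Cdc45 and the GINS complex join MCM2-7 to form the active helicase and the polymerases, held by the PCNA clamp, copy both strands. Mast cells grown in interleukin 3 keep dividing for weeks, so these genes are transcribed before any antigen is added.

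Total counts ran from 8975371 to 14116976 per library, and levels are given as CPM, counts relative to a common library total after correction with TMM factors (a trimmed mean over genes). These factors ran from 1.10 to 1.11 for Control, from 0.941 to 0.947 for BSA and from 0.957 to 0.963 for Taxinine, so scaling by plain totals lowered BSA against Control for nearly every gene: the median of all genes moved from -0.0041 to -0.231 on the log2 scale. Directions below are relative to the TMM scaling, and a small positive change can have the other sign under plain totals. The 13 mast cell markers, among them Kit, Fcer1a and Cpa3, summed to 54000 to 55500 CPM in Control, 57900 to 59900 in BSA and 57900 to 59200 in Taxinine. The sum does not show changes of single markers. In BSA against Control Hdc rose 6.20-fold and Tpsab1 3.16-fold, while Ms4a2 fell to 0.786 of Control. The 11 listed macrophage markers summed to 185 to 197, 181 to 183 and 137 to 142 CPM in the same order, with none at 0 throughout a group and C1qa not in the table. Most of this was Ccr2 (112.5, 88.2 and 57.05 CPM on average) and Adgre1 (44.2, 49.8 and 47.5). Csf1r, C1qb, Mrc1, Marco, Fcgr1 and Ly6c2 had group means of at most 1.15 CPM. In BSA against Control, Cd14 (3.065-fold), Lyz2 (1.48-fold) and Adgre1 (1.125-fold) were called higher. Ccr2 (0.785 of Control) and Fcgr1 (0.475) were called lower. Of 10 neutrophil markers 2 were in the table, at most 1.26 CPM in sum, and of 10 lymphoid markers 3, at most 3.39. Erythroid markers (4 of 8 in the table) lay between 36.6 and 46.0 CPM, progenitor and dendritic markers (3 of 7) between 657 and 728, and basophil markers, which include Fcer1a, between 5390 and 6020. In cultures measured as a whole, fewer cells of a kind and less RNA per cell cannot be told apart.

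The regulatory letters shared by these genes were read from RefSeq promoter windows on GRCm38.p6, from 250 bases before to 50 bases after each start. Of the 37 genes, 29 matched a window. The genes without one were Gins1, Gins2, Gins4, Mcm4, Prim2, Pole, Rfc2 and Ccne2. E2F factors bind words of the kind TTTGGCGC, TTTGCCGC, TTTCGCGC and TTTCCCGC, and at least 1 of these 4 words stood on either strand in 13 of the 29 genes (44.8%), against 704 of 27025 genes with a window (2.6%) and 495 of the 10592 that were also in the count table (4.67%). With TTTGGCGC and TTTCCCGC alone it was 11 of 29 (37.9%) against 1.8%. The words can overlap one another, since the end of one can be the start of another on the opposite strand. The CCAAT box, letters bound by the factor NF-Y, stood in 18 of 29 (62.1%) against 41.1% of all genes. A match is a description of the letters and not a measured binding site. The windows of Cdc6, Gins3, Pola1 and Uhrf1 are shown because these genes hold an E2F word before the start and have their level given in every library below; capitals mark the E2F words, also where they read on the other strand.
Cdc6: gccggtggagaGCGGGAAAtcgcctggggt
Gins3: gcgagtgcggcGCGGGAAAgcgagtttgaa
Pola1: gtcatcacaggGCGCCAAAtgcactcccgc
Uhrf1: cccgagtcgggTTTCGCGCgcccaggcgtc

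These 30 bases lie at chr11:98908002-98908031 for Cdc6, chr8:95633507-95633536 for Gins3, chrX:93632275-93632304 (minus strand) for Pola1 and chr17:56304117-56304146 for Uhrf1. The first base of the word stands 138 bases before the RefSeq start in Cdc6 and Pola1, 41 before it in Gins3 and 185 before it in Uhrf1. The stretches of Cdc6, Gins3 and Uhrf1 lie inside the gene coordinates given below, which are from GENCODE. They are thus upstream only of the RefSeq start used. Uhrf1 has 2 windows, and the other one, nearer the GENCODE start of the gene, holds none of the 4 E2F words. As the levels below show, Cdc6 and Gins3 fell in BSA against Control, Uhrf1 gave no call and Pola1 was called slightly higher. The Pola1 call was lost in 8 of the 9 fits that left out a library. With plain totals Pola1 was at -0.10 and Uhrf1 at -0.27 on the log2 scale. A difference in direction among these 4 genes therefore rests on the TMM scaling. Windows of 4 more genes, chosen after their values were seen because they were called in BSA against Control, follow with E2F words in capitals for Mcm6 and Rfc3 and the CCAAT box in capitals for Pcna and Rrm2.
Mcm6: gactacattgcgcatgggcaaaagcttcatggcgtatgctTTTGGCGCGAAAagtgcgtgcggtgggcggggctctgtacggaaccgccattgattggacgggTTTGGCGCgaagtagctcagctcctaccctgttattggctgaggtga
Rfc3: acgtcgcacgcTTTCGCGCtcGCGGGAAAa
Pcna: accacgggtacgATTGGtccttgaggagag
Rrm2: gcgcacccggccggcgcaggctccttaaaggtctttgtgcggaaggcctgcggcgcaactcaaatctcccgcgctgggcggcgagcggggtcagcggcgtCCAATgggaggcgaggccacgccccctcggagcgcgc

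They lie at chr1:128359706-128359855 (minus strand) for Mcm6, chr5:151651200-151651229 (minus strand) for Rfc3, chr2:132253250-132253279 (minus strand) for Pcna and chr12:24708104-24708240 for Rrm2. In Mcm6 the first capital stretch holds TTTGGCGC and, overlapping it on the other strand, TTTCGCGC. The windows of Pcna and Rrm2, the genes with the largest rises in BSA, held none of the 4 E2F words, which says only that these letters are not in them. Their CCAAT boxes stand 87 and 50 bases before the RefSeq start. The stretches of Pcna and Rfc3 lie inside the GENCODE coordinates of these genes.

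Levels were compared between genes as CPM per kilobase of merged exons. In Control, Pcna had the highest level of the 37 genes at 126 ± 2.89 CPM per kb (SD, n = 3), followed by the helicase subunit genes Mcm3 (73.9 ± 3.16) and Mcm6 (64.8 ± 1.03). Fen1 had the lowest at 0.583 ± 0.114, with 5 to 25 counts in a library. The next lowest were the GINS subunit genes Gins2 (3.08 ± 0.097) and Gins3 (3.29 ± 0.277), whose spreads overlapped. Of the exonic bases, 1909 of 2422 in Fen1 and 2758 of 4097 in Gins2 overlap a gene on the other strand. In Chaf1a 4648 of 8854 bases do so, and in Rfc2 952 of 6303. The strand setting of the counting is not given, so the levels of Fen1, Gins2, Chaf1a and Rfc2 and the GINS and RFC ratios below are uncertain. Subunits of 1 complex were not at 1 level: the highest and lowest of MCM2-7 differed by 3.15 times in Control, those of GINS by 6.14 times and those of the RFC clamp loader by 8.55 times. Within MCM2-7, the levels of Mcm4, Mcm5 and Mcm7 per kb of merged exons (40.0 ± 1.55, 40.2 ± 0.193 and 40.9 ± 2.03) did not differ beyond their spread. These comparisons depend on the length used. With each gene's longest transcript the MCM2-7 ratio was 2.02. Mcm4, Mcm5 and Mcm7 then stood apart in Control, at 40.0, 47.5 and 61.0 CPM per kb, and Mcm4 was below Mcm2 (46.8).

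**Figure D1:**
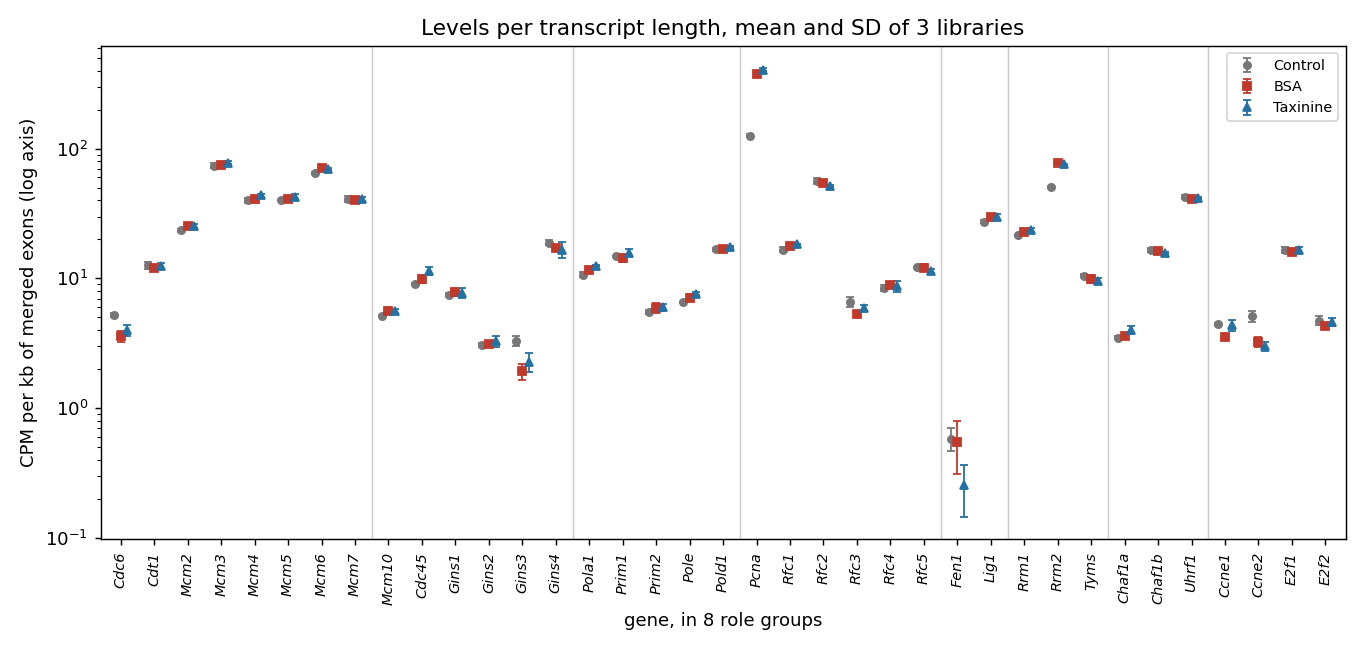
Level of each of the 37 genes in CPM per kilobase of merged exons (log axis), as mean and SD of 3 libraries in Control, BSA and Taxinine, with vertical lines between the 8 role groups. Pcna is the highest gene in every group and the one with the widest gap between Control and the other groups. Fen1 is the lowest and has the widest error bars. The levels of Fen1, Gins2 and Chaf1a are uncertain, because much of their exons overlaps genes on the other strand, as a smaller part does in Rfc2.

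The first comparison, BSA against Control, asks how these transcripts differ after IgE sensitisation and antigen. The Pcna transcript rose 2.99-fold and that of Rrm2 1.55-fold, while Cdc6, Gins3, Rfc3 and both cyclin E genes fell to between 0.588 and 0.805 of Control. Most of the 37 genes moved little. By edgeR's quasi-likelihood test at an adjusted p under 0.05, 9 of the 37 (24.3%) were called, against 34% of all genes in the table: 4 were higher (16.2% of all genes) and 5 lower (17.8%). The 3 BSA libraries did not overlap the 3 Control libraries in 17 genes (45.9%), against 42.9% of all genes. The median log2 fold change was 0.02 for the 37 genes and -0.00 for all genes. Of the 28 genes without a call, 27 had a 95% interval that stayed within 1.25-fold in either direction, and the exception was Fen1. Among all genes, 4056 of the 9965 without a call stayed within the same bound. This bound holds for the TMM scaling only. With plain totals 26 of the 37 genes were called lower, against 6896 of all 15109. The values themselves of E2f2 (-0.37) and Gins4 (-0.36 on the log2 scale) then lay beyond 1.25-fold. Further genes came near it, among them Tyms (-0.305 ± 0.0585) and Cdt1 (-0.3009 ± 0.0664), with intervals that reach past it. The bound is thus lost for more genes than E2f2 and Gins4.

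**Figure D2:**
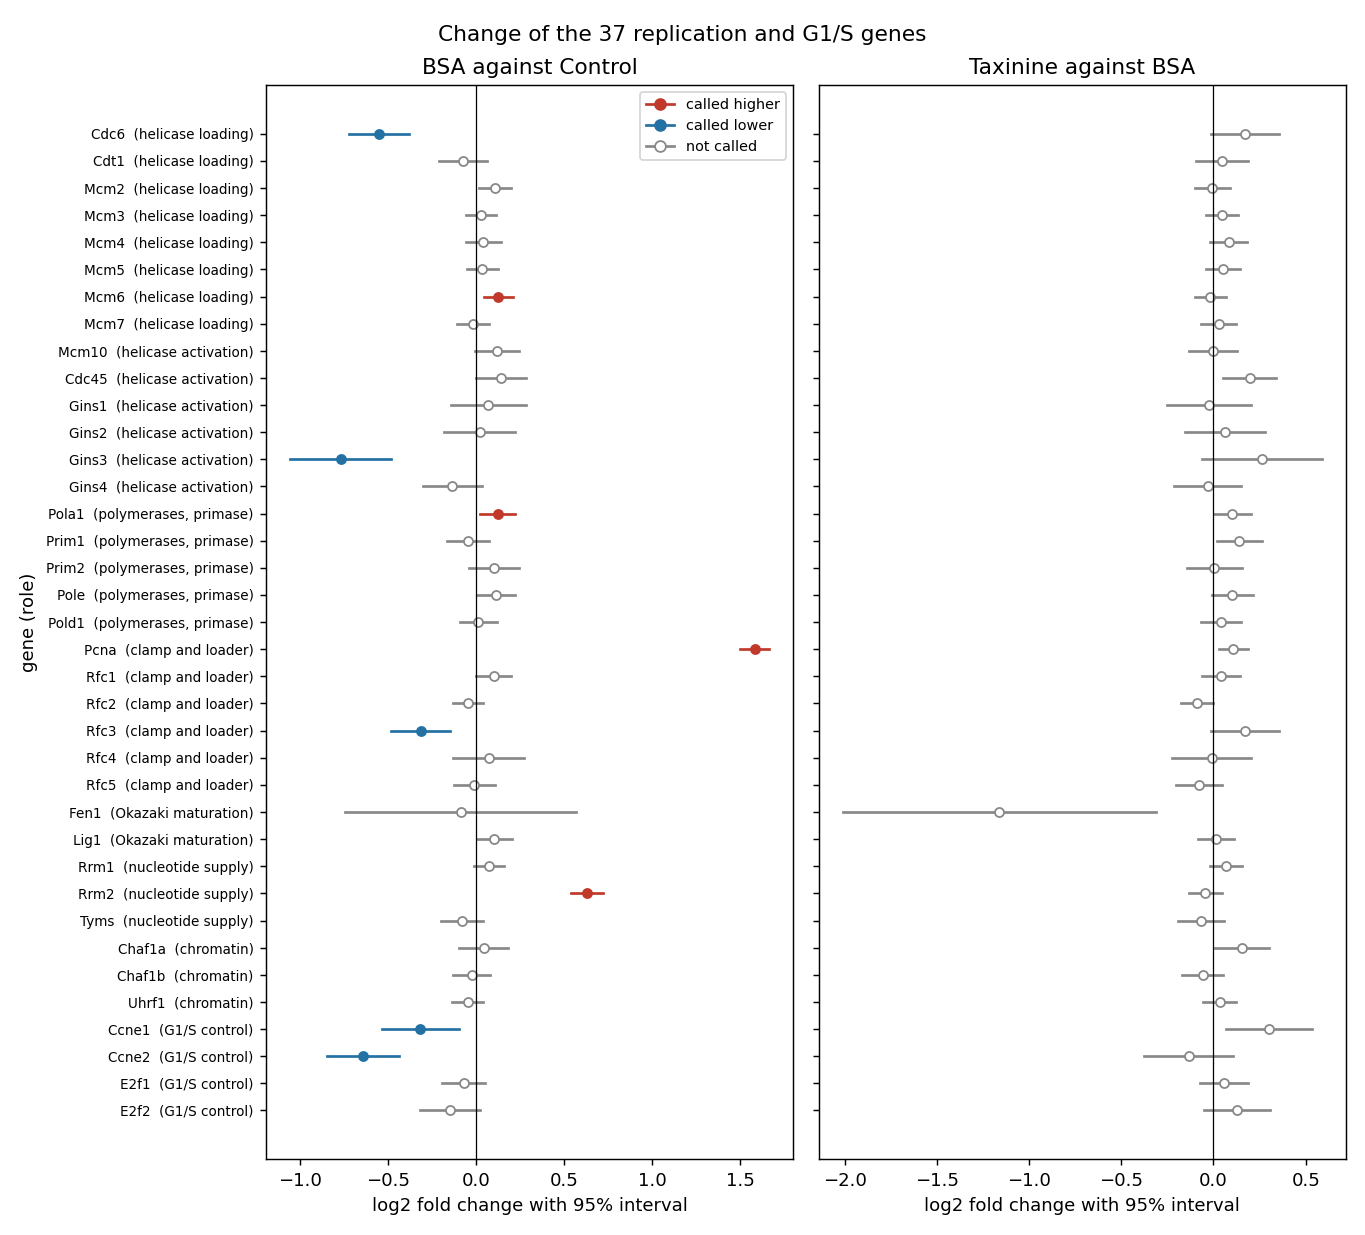
Log2 fold change with its 95% interval (horizontal axis) of the 37 genes, in BSA against Control on the left and Taxinine against BSA on the right, where filled points are called at an adjusted p under 0.05. On the left Pcna and Rrm2 stand to the right and Cdc6, Gins3, Rfc3, Ccne1 and Ccne2 to the left, and on the right no gene is called; Mcm6 and Pola1, also filled on the left, have the other sign when libraries are scaled by plain totals.

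Helicase loading was led by the loading factor gene Cdc6 (GRCm38 chr11:98907801-98923940; genes below are given on the same build). Its level was 28.4, 26.8 and 27.0 CPM in Control, 19.2, 16.8 and 20.2 in BSA, then 19.9, 19.6 and 23.1 in Taxinine. All 6 antigen-treated libraries lay below all 3 Control libraries. In BSA against Control it fell by 0.55 ± 0.08 on the log2 scale (SE, adjusted p = 8.5e-07). Its processed pseudogene Gm9430, with 95.2% identity over 1260 bases, is not listed in the count table. Cdt1, the partner of Cdc6 in loading, was at 39.8 ± 2.38 CPM in Control and 37.9 ± 1.44 in BSA and gave no call (-0.07 ± 0.07, adjusted p = 0.442).

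The 6 genes of the MCM2-7 ring, summed, lay at 1200 to 1250 CPM in Control, 1269 to 1291 in BSA and 1288 to 1313 in Taxinine. Only Mcm6 (chr1:128331590-128359664) was called, at 297, 307 and 303 CPM in Control, 334, 318 and 338 in BSA, with 320.3, 329 and 329.7 in Taxinine. Its rise of 0.13 ± 0.04 (adjusted p = 0.012) is small and became -0.10 with plain totals. The others gave log2 fold changes of 0.11 ± 0.05 (Mcm2, adjusted p = 0.0628), 0.03 ± 0.04 (Mcm3), 0.04 ± 0.05 (Mcm4), 0.04 ± 0.04 (Mcm5) and -0.02 ± 0.05 (Mcm7). Reads of Mcm7 can also come from a processed pseudogene, Gm5487, with 97.7% identity over 2157 bases, which is not listed in the count table. Mcm2 just missed the call and passed it with the size factors of DESeq2's kind (adjusted p = 0.0415), with a filter on low counts (0.0443) and without BSA replicate 1 (0.0491), while plain totals called it lower (-0.12, adjusted p = 0.0246).

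In helicase activation, 1 of 6 genes was called. Gins3 (chr8:95633453-95645060), a subunit of the 4-part GINS complex, stood at 9.19, 8.06 and 9.49 CPM in Control, 5.47, 5.75 and 4.37 in BSA, then 5.44, 5.70 and 7.33 in Taxinine. Every Control library lay above every antigen-treated one. The fall was 0.77 ± 0.14 on the log2 scale in BSA against Control (adjusted p = 2.4e-05). Its partners gave no call: Gins1 at 0.07 ± 0.11, Gins2 at 0.02 ± 0.10 and Gins4 at -0.14 ± 0.08. Per kilobase, Gins3 took the place of Gins2 as the lowest GINS gene, and the gap from Gins4 down to the lowest widened from 6.14 to 8.97 times. Reads of Gins2 cannot be assigned with certainty, because 2758 exonic bases overlap Gse1 on the other strand and the strand setting of the counting is not given in the sources used here.

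Cdc45 (chr16:18780447-18811987), which joins GINS on the helicase, had 32.1, 31.5 and 31.1 CPM in Control, 32.7, 34.8 and 37.5 in BSA, with 42.9, 36.9 and 40.3 in Taxinine. Each BSA library was above each Control library, but the difference of 0.14 ± 0.07 was not called (adjusted p = 0.115). Mcm10, a factor of helicase activation, showed the same arrangement with 39.8 ± 0.499 CPM in Control and 43.4 ± 1.47 in BSA (0.12 ± 0.06, adjusted p = 0.132).

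Among polymerases and primase, Pola1 (chrX:93304767-93632155), the catalytic subunit of the polymerase that starts new strands, had 97.6, 90.4 and 94.99 CPM in Control, 103, 102 and 103 in BSA, then 111, 111 and 109 in Taxinine. The 3 groups did not overlap and stood in the order Control, BSA, Taxinine. The call in BSA against Control was marginal (0.12 ± 0.05, adjusted p = 0.0439): it was lost in 8 of the 9 fits that left out a library, and the value was -0.10 with plain totals. The subunit gene of the primase, Prim1 (chr10:128015168-128030037), had 56.7, 56.7 and 58.2 CPM in Control, 56.6, 57.7 and 51.5 in BSA, with 64.2, 62.3 and 57.3 in Taxinine, with overlap between neighbouring groups and no call. Prim2 (0.10 ± 0.07), Pole (0.11 ± 0.05) and Pold1 (0.01 ± 0.05), the last pair being the catalytic subunits of the leading and lagging strand polymerases, were not called either.

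The sliding clamp gene Pcna (chr2:132249162-132253314) had the largest change of the 37 genes in BSA against Control. Its level was 298, 311 and 299.7 CPM in Control, 929, 878 and 909.7 in BSA, then 953, 974.6 and 999.5 in Taxinine. The lowest antigen-treated library was far above the highest Control library. The log2 fold change was 1.58 ± 0.04 (adjusted p = 8.1e-32). Pcna made up 8.42% to 8.56% of the summed CPM of the 37 genes in Control, 20.8% to 21.5% in BSA and 21.8% to 22.5% in Taxinine. A pseudogene, Pcna-ps2, shares 99.2% of 781 aligned bases with Pcna, and its counts were 0.589% to 1.05% of those of Pcna in each library.

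The RFC complex, which opens the clamp and loads it onto DNA, did not follow Pcna. Rfc3 (chr5:151642756-151651242) fell, with 22.01, 25.9 and 23.4 CPM in Control, 17.9, 19.8 and 19.8 in BSA, with 20.3, 22.2 and 21.98 in Taxinine (-0.31 ± 0.08 in BSA against Control, adjusted p = 0.0028). All 3 BSA libraries lay below all 3 Control libraries, and the Taxinine libraries lay above BSA and overlapped Control. Rfc1, the large subunit, was at 0.10 ± 0.05, Rfc2 at -0.05 ± 0.04, Rfc4 at 0.07 ± 0.10 and Rfc5 at -0.01 ± 0.06, none called. Rfc2 and Rfc5 overlap genes on the other strand, Lat2 by 952 and Wsb2 by 499 exonic bases.

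Okazaki fragment maturation gave no call in BSA against Control. Lig1 (chr7:13277283-13311433), the ligase that seals the fragments, had 117, 119.7 and 114 CPM in Control, 126, 123 and 129 in BSA, then 135, 122 and 126 in Taxinine. The BSA libraries lay above the Control libraries by little (0.11 ± 0.05, adjusted p = 0.0893). Fen1 (chr19:10199132-10204169), the flap nuclease, had 1.65, 1.47 and 1.11 CPM in Control, 0.835, 1.97 and 1.18 in BSA, with 0.926, 0.475 and 0.453 in Taxinine. At 5 to 25 counts a library its error is wide (-0.09 ± 0.32), and 1909 of its exonic bases overlap the antisense gene Gm10143, so both the level and its changes are uncertain.

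In nucleotide supply, the small subunit gene of ribonucleotide reductase rose and the large one gave no call. Rrm2 (chr12:24708241-24714146), the subunit whose amount is tied to S phase, had 142, 139 and 138 CPM in Control, 229, 209 and 213 in BSA, then 209, 209.9 and 211 in Taxinine. No antigen-treated library overlapped Control. The log2 fold change was 0.63 ± 0.04 (adjusted p = 1.1e-15). A processed pseudogene, Gm48455, matches Rrm2 at 95.5% over 419 bases and is not listed in the count table. Rrm1 (chr7:102441695-102469771) had 235, 237 and 238 CPM in Control, 249, 248 and 251 in BSA, with 253, 261 and 270.0 in Taxinine, 0.08 ± 0.04 in BSA against Control without a call. The ratio of Rrm2 to Rrm1 per kilobase was therefore 2.31 to 2.399 in the Control libraries, 3.346 to 3.644 in BSA and 3.109 to 3.295 in Taxinine. Tyms, the thymidylate synthase gene, was not called (-0.08 ± 0.06), and parts of its annotated transcript repeat elsewhere in the genome.

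The 3 genes of chromatin and DNA methylation gave no call. Uhrf1 (chr17:56303321-56323486), which brings the maintenance methyltransferase to the fork, had 177, 187 and 175 CPM in Control, 171, 176 and 176 in BSA, then 175, 181 and 178 in Taxinine. The 3 groups overlapped. Chaf1a (chr17:56040439-56072289), the large subunit of the histone chaperone CAF-1, had 30.2, 30.4 and 31.7 CPM in Control, 31.7, 31.0 and 32.7 in BSA, with 38.1, 34.1 and 34.2 in Taxinine, so only Taxinine stood apart. Chaf1a shares 4648 exonic bases with Ubxn6 on the other strand, so its level is uncertain. Its partner Chaf1b was at -0.02 ± 0.05 in BSA against Control, and Uhrf1 at -0.05 ± 0.04.

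Of the 4 genes of G1/S control, both cyclin E genes fell and both E2F genes gave no call. Ccne2 (chr4:11191351-11204779) had 18.2, 15.9 and 19.2 CPM in Control, 11.4, 12.3 and 10.4 in BSA, then 11.0, 10.8 and 9.52 in Taxinine. All antigen-treated libraries were below Control, and the fall was 0.64 ± 0.10 on the log2 scale (adjusted p = 1.5e-06). Ccne2 shares 609 exonic bases with Ints8 on the other strand, and Ints8 stood at 31.3 ± 1.38 CPM in Control and 34.4 ± 0.758 in BSA. Ccne1 (chr7:38097984-38107534) had 11.4, 11.8 and 11.97 CPM in Control, 9.79, 9.22 and 9.28 in BSA, with 10.7, 12.8 and 11.3 in Taxinine. The BSA libraries lay below all the others, and Taxinine overlapped Control. Its call (-0.32 ± 0.11, adjusted p = 0.0199) was lost in 3 of the 9 fits that left out a library, with adjusted p up to 0.0607, and with DESeq2 (adjusted p = 0.0872). E2f1, an activator of S phase genes, was at 52.6 ± 2.79 CPM in Control and 50.1 ± 1.66 in BSA (-0.07 ± 0.06), and E2f2 at 23.1 ± 1.89 and 20.9 ± 1.20 (-0.15 ± 0.08).

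**Figure D3:**
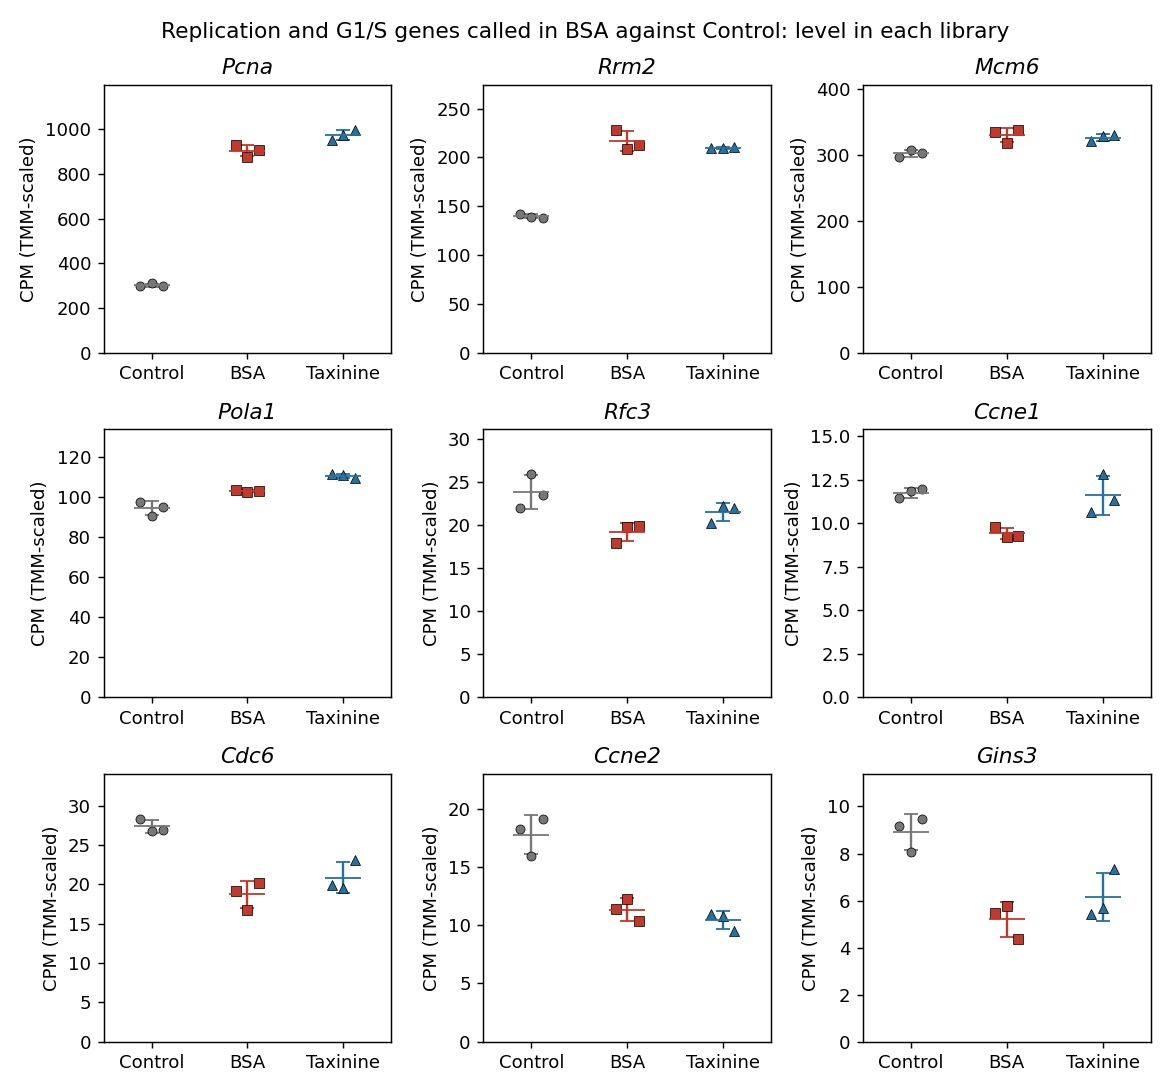
Level in each library (CPM, TMM-scaled, axes from 0) of the 9 genes called in BSA against Control, with 3 points per group and bars for mean and SD. Pcna and Rrm2 are high in all 6 antigen-treated libraries, and Cdc6, Ccne2 and Gins3 are low in them. Rfc3 and Ccne1 are lowest in BSA and overlap Control in Taxinine, but neither was called in Taxinine against BSA. The Ccne1 call shown was lost in 3 of the 9 fits that left out a library. The small rises of Mcm6 and Pola1 turn into small falls when libraries are scaled by plain totals.

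The pattern was a few opposite changes around a level that moved little. Without Pcna and Rrm2, the summed CPM of the other genes was 3076 to 3179 in Control, 3128 to 3231 in BSA and 3206 to 3241 in Taxinine, and 25 of the 37 genes varied by less than 1.25 times between the highest and the lowest of the 9 libraries. The latter count was not made for all genes, so it has no share to stand beside. Plain totals, used directly or through the deposited log2 values, changed the count most among the alternatives: 28 of the 37 genes were then called, 2 higher (Pcna and Rrm2) and 26 lower. Of all 15109 genes, plain totals used directly called 7977, with 1081 higher and 6896 lower. Among all called genes the share of higher ones went from 47.6% to 13.6%. The median of the 37 genes moved with that of all genes, to -0.21 against -0.23. Pcna and Rrm2 higher and Cdc6, Gins3, Rfc3 and Ccne2 lower were called in all 16 alternative fits.

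**Figure D4:**
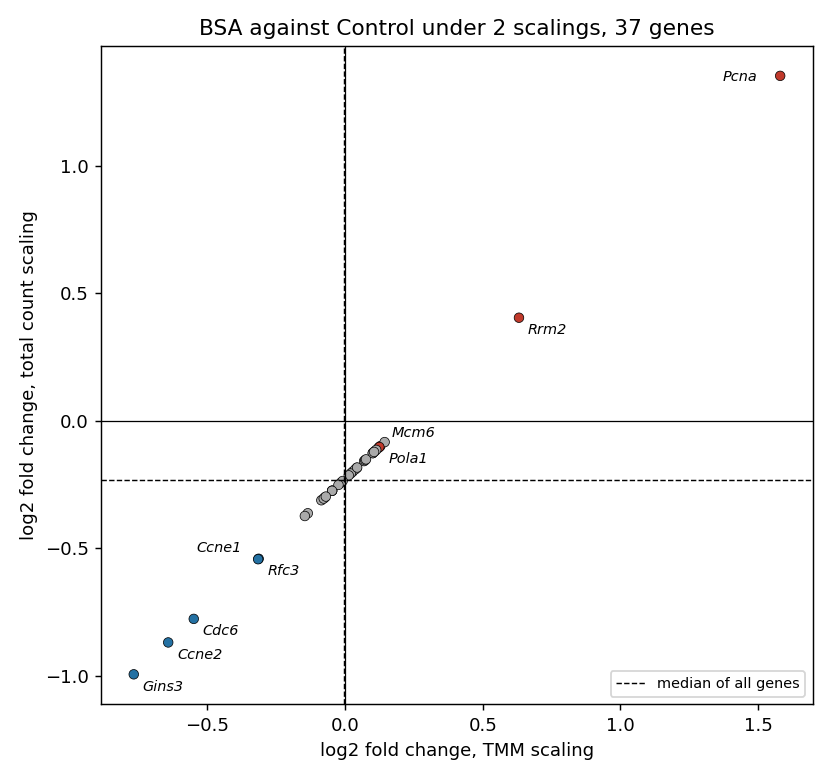
Log2 fold change of the 37 genes in BSA against Control with TMM scaling (horizontal axis) and with plain library totals (vertical axis), with dashed lines at the medians of all genes and coloured points for the 9 called genes. The points keep their order and shift down together with the median, so that Mcm6 and Pola1 cross 0 while Pcna and Rrm2 stay above it.

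Other genes of these pathways were described from lists written from general knowledge, with earlier results of these data known. Of 40 further replication genes, 4 rose and 5 fell in BSA against Control (22.5%, against 34% of all genes, list median -0.05). With plain totals 2 rose and 31 fell, against 1081 and 6896 of all 15109 genes. Orc1 (chr4:108579423-108614833), the largest subunit of the origin recognition complex that Cdc6 joins, rose from 8.79, 10.4 and 8.90 CPM in Control to 30.1, 27.7 and 29.7 in BSA (1.63 ± 0.09, adjusted p = 4.1e-19), with 27.2, 25.3 and 29.1 in Taxinine. The loading partners Orc1 and Cdc6 thus changed in opposite directions. Top1, a topoisomerase gene, rose by 0.53 ± 0.05 and Nasp, a histone chaperone gene, by 0.30 ± 0.05 (0.075 with plain totals, adjusted p = 0.242), while Cdc7, the kinase that fires origins, fell by 0.48 ± 0.09.

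Of 20 further genes of nucleotide metabolism, 4 rose and 1 fell (25% called, against 34% of all genes, list median 0.01). With plain totals 0 rose and 14 fell, against 1081 and 6896 of all 15109 genes. The gene that fell was Rrm2b, the p53-induced small subunit of ribonucleotide reductase, from 38.1, 33.1 and 32.9 CPM in Control to 24.8, 24.5 and 20.0 in BSA (-0.58 ± 0.08, adjusted p = 8.7e-08), opposite to Rrm2. Impdh2 of guanine nucleotide synthesis (0.21 ± 0.05), Dut, which removes dUTP (0.22 ± 0.06), and Mthfd1 of folate metabolism (0.16 ± 0.06) were called higher, with the sign reversed for all 3 under plain totals. The Mthfd1 call was also lost in 4 of the 9 fits without a library (adjusted p up to 0.151) and in the fit of the 2 groups alone (0.0513). The list held 2 higher genes in that fit and without Control replicate 1 or 3, and 2 lower ones without Control replicate 3 or BSA replicate 2.

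Of 30 further genes of G1/S control, 5 rose and 10 fell (50% called, against 34% of all genes, list median -0.00). With plain totals 2 rose and 20 fell, against 1081 and 6896 of all 15109 genes. Without Control replicate 1 or BSA replicate 1, 3 rose. Cdkn1a, the kinase inhibitor p21, which also binds PCNA, rose from 402.5, 358.5 and 384 CPM in Control to 1333, 1248 and 1239 in BSA, with 1283, 1339 and 1337 in Taxinine (1.74 ± 0.04 in BSA against Control, adjusted p = 2.4e-32). The groups with antigen lay far above Control, as for Pcna. Myc, the growth factor-driven activator of cell cycle genes, fell by 1.42 ± 0.06, Cdkn1b, the kinase inhibitor p27, by 0.66 ± 0.05 and Fbxo5, an inhibitor of the anaphase-promoting complex, by 0.66 ± 0.07. Of 25 mitosis genes, taken for context, 10 rose and 3 fell (52% called, against 34% of all genes, list median 0.06). But with plain totals 0 rose and 14 fell, against 1081 and 6896 of all 15109 genes. With DESeq2 or without Control replicate 3, 1 fell. Cenpf was higher by 0.29 ± 0.06, Cenpe by 0.24 ± 0.05 and Tpx2 by 0.22 ± 0.05, values that plain totals moved without a call to 0.064, 0.014 and -0.0033, and Cenpa, a centromeric histone gene, fell by 0.21 ± 0.05.

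The second comparison, Taxinine against BSA, asks how the same genes differ with taxinine before antigen. The labels name no vehicle, so effects of taxinine, of a vehicle and of the pretreatment step itself cannot be told apart. None of the 37 was called by edgeR, against 6.98% of all genes (2.86% higher, 4.12% lower), and 8 of the 37 had an unadjusted p under 0.05, as had 2990 of the 15109 genes. DESeq2 called 0 as well. Among all called genes 40.9% were higher, and 57.6% with plain totals. BSA and Taxinine libraries were fully separated in 9 of the 37 genes (24.3%), against 23.9% of all genes. The median log2 fold change was 0.04, that of all genes 0.00, and 30 of the 37 intervals stayed within 1.25-fold in either direction, so for these 30 a change beyond that size lies outside the interval. Among all genes, 6282 of the 14054 without a call stayed within this bound.

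Of the 9 genes called in BSA against Control, Pcna, Rrm2, Mcm6, Pola1, Cdc6, Gins3 and Ccne2 had no Taxinine library that reached the Control range. Pcna was at 906 ± 26.0 CPM in BSA and 976 ± 23.4 in Taxinine (0.11 ± 0.04, adjusted p = 0.0853), without overlap and without a call. It was called with plain totals (0.13, adjusted p = 0.0221) and with limma on the deposited log2 values (0.13, adjusted p = 0.0275). Rrm2 (-0.04 ± 0.04), Cdc6 (0.17 ± 0.09), Gins3 (0.26 ± 0.16) and Ccne2 (-0.14 ± 0.12) had no call. For Cdc6 and Gins3, the intervals of -0.02 to 0.36 and -0.06 to 0.59 leave room for no change and for a partial return toward Control.

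The smallest p-values of the other role groups went in both directions. Cdc45 was at 35.0 ± 2.38 CPM in BSA and 40.1 ± 3.03 in Taxinine (0.20 ± 0.07, adjusted p = 0.0939), and Ccne1 at 9.43 ± 0.316 and 11.6 ± 1.12 (0.30 ± 0.12, adjusted p = 0.113), the latter with no overlap between BSA and Taxinine. Prim1 (0.14 ± 0.06), Chaf1a (0.15 ± 0.07), Pola1 (0.10 ± 0.05) and Rrm1 (0.07 ± 0.04) leaned higher without a call. Fen1 leaned lower (-1.16 ± 0.42, adjusted p = 0.0883) on 11, 25 and 13 counts in BSA, then 8, 5 and 6 in Taxinine, and the fit without BSA replicate 1 called it (adjusted p = 0.0453). Among markers, 2 of 11 for macrophages were called lower in Taxinine against BSA, Ccr2 (88.2 ± 4.51 to 57.1 ± 1.33 CPM) and Lyz2 (21.8 ± 1.78 to 14.95 ± 1.42), as were 2 of 13 for mast cells, Gata2 (-0.16 ± 0.04) and Mitf (-0.19 ± 0.06), the basophil gene Mcpt8 (-0.35 ± 0.06) and the myeloid factor gene Spi1 (-0.34 ± 0.06). The part of these cell types in the values above was not tested.

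In the related lists, the share called in Taxinine against BSA was 5% for replication, 0% for nucleotide metabolism, 10% for G1/S control and 12% for mitosis, against 6.98% of all genes. Of 40 further replication genes 2 rose (4 with plain totals, and 1 without BSA replicate 1 or 2 or Taxinine replicate 1 or 2): Nasp, from 92.4, 91.5 and 97.6 CPM in BSA to 112, 108 and 121 in Taxinine (0.28 ± 0.05, adjusted p = 0.000285), and Topbp1, a scaffold of origin firing (0.16 ± 0.04, adjusted p = 0.019). Nasp stood highest in Taxinine, then BSA, then Control. The Topbp1 call was lost in 4 of the 9 fits without a library, with adjusted p up to 0.121. None of the 20 nucleotide genes was called. In G1/S control, 1 of 30 rose and 2 fell (4 and 2 with plain totals, and 4 rose without BSA replicate 2, 3 without Control replicate 2, 2 without Taxinine replicate 2 and 0 without Taxinine replicate 3; 1 fell without BSA replicate 1 or Taxinine replicate 1 or 2): E2f3, of the E2F family, rose by 0.39 ± 0.09 (adjusted p = 0.0038; 0.0603 without Taxinine replicate 3) and Ccnd3, a D-type cyclin gene, fell by 0.27 ± 0.05. Of 25 mitosis genes 3 rose and 0 fell (median 0.10; 5 rose with plain totals, 8 with limma, and 1 without BSA replicate 1 or Taxinine replicate 1), among them Mki67, the proliferation marker, by 0.24 ± 0.05 and Cenpf by 0.23 ± 0.06, the latter lost without BSA replicate 1 or Taxinine replicate 1 or 3 (adjusted p up to 0.141).

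Taxinine against Control shares its libraries with both comparisons above and is given for its own values. Of the 37 genes, 15 were called (40.5%, against 33.1% of all genes), 10 higher (15.9% of all genes) and 5 lower (17.2%), and the groups did not overlap in 23 (62.2%, against 43.7%). Among all called genes 48.1% were higher, and 15.0% with plain totals. Pcna was higher by 1.69 ± 0.04 (adjusted p = 1.0e-32) and Rrm2 by 0.59 ± 0.05, and both held in all 16 alternative fits. The other genes called higher were Cdc45 (0.34 ± 0.07), Pola1 (0.23 ± 0.05), Pole (0.21 ± 0.05), Chaf1a (0.20 ± 0.07), Rrm1 (0.14 ± 0.04), Rfc1 (0.14 ± 0.05), Mcm4 (0.12 ± 0.05) and Mcm6 (0.11 ± 0.04). None of these 8 was called higher under plain totals, where Chaf1a, Rrm1, Rfc1, Mcm4 and Mcm6 had the other sign, and without Taxinine replicate 3 the number of genes called higher was 6. In the 9 fits without a library, the call was lost in 5 for Mcm4, 4 each for Mcm6 and Rfc1, 3 for Chaf1a and 1 for Rrm1, and DESeq2 gave adjusted p = 0.0558 for Mcm4 and 0.0552 for Chaf1a.

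The genes called lower in Taxinine against Control were Ccne2 (-0.78 ± 0.11), Gins3 (-0.51 ± 0.14), Cdc6 (-0.38 ± 0.08), Rfc2 (-0.13 ± 0.04) and Fen1 (-1.25 ± 0.40). The calls of Ccne2, Gins3 and Cdc6 held in all 16 alternative fits. Rfc2 lost its call without Control replicate 2 or Taxinine replicate 1 (adjusted p up to 0.0911) and Fen1 without Taxinine replicate 2 or 3 (up to 0.0918). Ccne1, lower in BSA, was at 11.6 ± 1.12 CPM in Taxinine against 11.7 ± 0.279 in Control (-0.01 ± 0.11, interval -0.23 to 0.20).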

How the data were processed

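Per the submitters' processing notes, reads were aligned with STAR 2.7.0f, and mm10 (GRCm38) and limma 3.11 are named; of annotation, counting program and strand option nothing is stated: not given in the sources used here. Whole-number read counts for 15109 genes were what the authors deposited, unscaled although named as TMM-normalised, and log2 values equal to log2(CPM + 1) with plain totals, to within 5.0e-05. Listed genes have counts in 4 or more libraries. All 37 genes passed, and 33 had 100 or more counts in every library.

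The counts were tested with edgeR 4.0.16 (quasi-likelihood, TMM, 1 fit of 9 libraries, Benjamini-Hochberg adjustment over all 15109 genes), and calls needed an adjusted p under 0.05. The 16 alternatives were DESeq2 1.42.0, limma 3.58.1 on the deposited log2 values, DESeq2-type size factors in edgeR, plain totals, edgeR's filter on low counts, a replicate block, a fit of the compared groups alone, and leaving out each library (R 4.3.3). The procedure was tested on simulated data. Replicate libraries differed by 1.55 to 3.89 times the sampling variance (chi-square per degree of freedom), so none was a repeat deposit, and the biological coefficient of variation was 3.90%. A limit of 3 counts in a library is 0.192 to 0.347 CPM, which covers counting error only.

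Coordinates and exon lengths are from GENCODE M21 (GRCm38). Copies were searched at 95% identity over 200 bases or more, and overlaps were taken from exon coordinates with any shared base counted.

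The genes, lists and tests were chosen with earlier results of these data known. Each role group's genes with the smallest p in BSA against Control and in Taxinine against BSA are given in every library, as are the further genes called in BSA against Control (Mcm6 and Rfc3, chosen after their values were seen); of each related list, up to 4 and 2 genes by the same order. Promoter windows of up to 6 such genes with an E2F word before the start are printed (the word of Lig1 lies after it), away from annotated exons where longer than 30 bases.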

Additional observations from a re-analysis of the deposited data

How the results depend on the processing

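Plain library totals and limma on the deposited log2 values, which uses the same totals, shifted fold changes in BSA and Taxinine against Control by construction of the scaling. In BSA against Control they called 7977 and 7852 of all genes, and in both 28 of the 37 genes, 2 higher and 26 lower. In Taxinine against BSA each called 1 of the 37, Pcna, higher, and in Taxinine against Control 2 higher and 18 lower. Of all 15109 genes, plain totals called 1105 higher and 6281 lower in Taxinine against Control. In BSA against Control with plain totals the log2 fold change turned to -0.12 for Mcm2, -0.20 for Mcm3, -0.18 for Mcm4, -0.19 for Mcm5, -0.0995 for Mcm6, -0.10 for Pola1, -0.21 for Pold1, -0.13 for Rfc1, -0.12 for Lig1, -0.15 for Rrm1, -0.18 for Chaf1a, -0.018 for Impdh2, -0.0042 for Dut, -0.063 for Mthfd1 and -0.0033 for Tpx2. With limma it turned to -0.12 for Mcm2, -0.20 for Mcm3, -0.19 for Mcm4 and for Mcm5, -0.099 for Mcm6, -0.10 for Pola1, -0.21 for Pold1, -0.13 for Rfc1, -0.12 for Lig1, -0.15 for Rrm1, -0.18 for Chaf1a, -0.017 for Impdh2, -0.058 for Mthfd1 and -0.0026 for Tpx2. In Taxinine against Control it turned, with plain totals, to -0.13 for Mcm3, -0.077 for Mcm4, -0.11 for Mcm5, -0.091 for Mcm6, -0.19 for Mcm7, -0.15 for Pold1, -0.061 for Rfc1, -0.057 for Rrm1 and -0.0032 for Chaf1a, and with limma to -0.13 for Mcm3, -0.076 for Mcm4, -0.11 for Mcm5, -0.091 for Mcm6, -0.19 for Mcm7, -0.14 for Pold1, -0.061 for Rfc1 and -0.059 for Rrm1. Sign changes of values called in neither fit are not listed. In Taxinine against BSA all-gene calls moved more without a Taxinine library than with either. Without 1 library at a time, all-gene calls ranged from 4454 to 5070 in BSA against Control, from 616 to 1281 in Taxinine against BSA (659, 616 and 699 without Taxinine replicate 1, 2 or 3) and from 4221 to 5130 in Taxinine against Control. Calls among the 37 genes ranged from 7 to 10 (3 to 5 higher, 4 to 5 lower), from 0 to 1 (0 higher, 0 to 1 lower, the 1 being Fen1 without BSA replicate 1) and from 11 to 16 (6 to 11 higher, 4 to 6 lower). A replicate block called 5078, 1093 and 4972 of all genes and 8 (3 higher, 5 lower), 0 and 15 (10 higher, 5 lower) of the 37, and took away the Pola1 call in BSA against Control (adjusted p = 0.0506). Deviations of same-numbered libraries correlated at -0.196 to 0.106, and those of differently numbered libraries at -0.186 to 0.208. With 3 libraries in a group, these values cannot decide whether the numbers pair the samples. With the 4 E2F words cut to 2, genes of the 37 with a word went from 13 to 11. With the longest transcript as length, the ratio of highest to lowest in Control went from 3.15 to 2.02 in MCM2-7, from 2.35 to 1.48 in ribonucleotide reductase and from 2.67 to 1.36 in primase. Depth limits Fen1, with 5 to 25 counts a library.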

Other observations

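In Taxinine against Control, 12 of 25 mitosis genes were called higher by edgeR and 0 lower (15.9% of all genes were higher), with a median log2 fold change of 0.17, but 4 were higher and 12 lower with plain totals or with limma. The other replication genes split into 5 higher and 5 lower of 40 (median 0.02), and into 3 and 26 with plain totals. The number lower was 3 without Control replicate 3 or Taxinine replicate 1 or 2, and 2 without Taxinine replicate 3 or with DESeq2, and 1 mitosis gene was lower without Control replicate 1. Cenpf, a kinetochore gene, was higher by 0.52 ± 0.06 and Mki67 by 0.27 ± 0.05. With plain totals the median of all genes in this comparison moved from -0.01 to -0.21. Of all 15109 genes, 1105 were then called higher and 6281 lower.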
